A study of Mus musculus with 12 samples.

Results

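Complement is a cascade of blood proteins that marks microbes, dying cells and debris for uptake. C1q, a complex of A, B and C chains, starts the classical pathway, C4 acts next in that pathway, factor B and properdin act in the alternative pathway, and both routes cleave C3. The fragments C3a and C5a signal to myeloid cells through the receptors encoded by C3ar1 and C5ar1. Tissue macrophages are a main source of C1q, whereas hepatocytes make most of the circulating C3, C4 and factor B.

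The open chromatin of 9 mouse complement genes was described here from ATAC-seq peaks, that is, sites where a transposase could insert sequencing adapters. The genes were C1qa, C1qb, C1qc, C3, C4b, Cfb (factor B), Cfp (properdin), C3ar1 and C5ar1, out of 21887 protein-coding genes placed. They were grouped by function, with earlier results of these data known. A peak belonged to the gene that holds its centre, or else to the nearest protein-coding gene within 100 kb. This gave 131 of 334073 peaks, which merged into 41 of 100354 regions when peaks of any lists that overlapped were joined. Of the 41 regions, 25 lay inside a gene, 14 outside and 2 across a gene end, and the farthest was 17734 bp from its gene, far inside the 100 kb limit.

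All 12 libraries came from sorted myeloid cells of C57BL/6J mice, 2 for each of 6 populations. On the NASH diet, a diet that models nonalcoholic steatohepatitis, these were F4/80-high Tim4-negative Kupffer cells (KN-RM), F4/80-high Tim4-positive Kupffer cells (KC-N), CD11b-high Ly6C-low recruited liver macrophages (Ly6CLo-RM), CD11b-high Ly6C-high recruited liver macrophages (Ly6CHi-RM) and Ly6C-high monocytes of the blood (Blood-Ly6CHi-NASH). F4/80-high Tim4-positive Kupffer cells of the control diet (KC-H) were the sixth population and the only one without the NASH diet. The labels give no age, sex or number of animals, and no time on the diet. Each population had 1 deposited list made from both libraries, with 34293 peaks for KN-RM, 50550 for KC-N, 63501 for KC-H, 54621 for Ly6CLo-RM, 61492 for Ly6CHi-RM and 69616 for Blood-Ly6CHi-NASH.

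A list gives each peak a tag count and a score, both the authors' values on a scale of the list's own. They are used here to place a peak within its list and not to compare heights between lists. The median score was 34 in KN-RM, 38 in KC-N, 48 in KC-H, 40 in Ly6CLo-RM and 46 in both Ly6CHi-RM and Blood-Ly6CHi-NASH. With 1 list per population no value had a replicate error, so no comparison has a test. A list also holds only peaks above its own limit, so an absent peak is not a measured zero, and fewer cells with an open site cannot be told apart from less opening per cell.

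Marker genes were counted to check the labels. The 5 Kupffer cell genes had 16 peaks in KN-RM, 30 in KC-N, 79 in KC-H, 4 in Ly6CLo-RM, 10 in Ly6CHi-RM and 13 in Blood-Ly6CHi-NASH, and the other counts of this paragraph follow that order. Timd4, the gene of the sorted marker Tim4, had 0, 1, 17, 1, 0 and 0 peaks, so KC-N, labelled Tim4-positive, had 1 peak at the gene of that marker; a peak does not measure the protein used in the sort. Monocyte genes had 8, 12, 12, 15, 30 and 31 peaks, most in Ly6CHi-RM and blood. Liver endothelial genes had 11, 22, 34, 11, 12 and 15. Of these, Stab2 had 7, 13, 19, 1, 1 and 1, and Cdh5 had 2, 4, 10, 1, 3 and 4. Kdr went the other way, with 2, 3, 2, 7, 5 and 7. Lyve1 had 0, 0, 1, 0, 1 and 1, and Clec4g had 0, 2, 2, 2, 2 and 2. Hepatocyte genes had 1, 3, 3, 2, 3 and 13, where 11 of the 13 were at Alb, and Serpina1a and Fgb had none in any list. Dendritic cell genes had 10 to 31 peaks, T and NK cell genes 6 to 15, stellate cell genes 4 to 7, B cell genes 1 to 4 and neutrophil genes 0 to 4.

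The 9 genes fell into different patterns. C1qa, C1qb and C1qc together had 6 peaks in KN-RM, 7 in KC-N and 18 in KC-H, against 3 in Ly6CLo-RM, 1 in Ly6CHi-RM and 0 in Blood-Ly6CHi-NASH. The other 6 genes together had 13, 15 and 21 peaks in KN-RM, KC-N and KC-H, against 14, 16 and 17 in Ly6CLo-RM, Ly6CHi-RM and Blood-Ly6CHi-NASH. The C1q genes thus had more peaks in each F4/80-high list than in any other, while the remaining genes had 13 to 17 in every list but KC-H. Per 10000 peaks of the list, the 9 genes had 5.54 peaks in KN-RM, 4.35 in KC-N, 6.14 in KC-H, 3.11 in Ly6CLo-RM, 2.76 in Ly6CHi-RM and 2.44 in Blood-Ly6CHi-NASH.

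The lists differ in length, and KC-H is the longest of the F4/80-high ones. When each list was reduced to its 34293 best-scored peaks, the length of the shortest, the 9 genes had 19 peaks in KN-RM, 16 in KC-N, 17 in KC-H, 15 in Ly6CLo-RM, 12 in Ly6CHi-RM and 9 in Blood-Ly6CHi-NASH. KC-H then no longer had the most, and the C1q genes had 6, 3, 4, 3, 1 and 0 peaks in the same order.

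**Figure D1:**
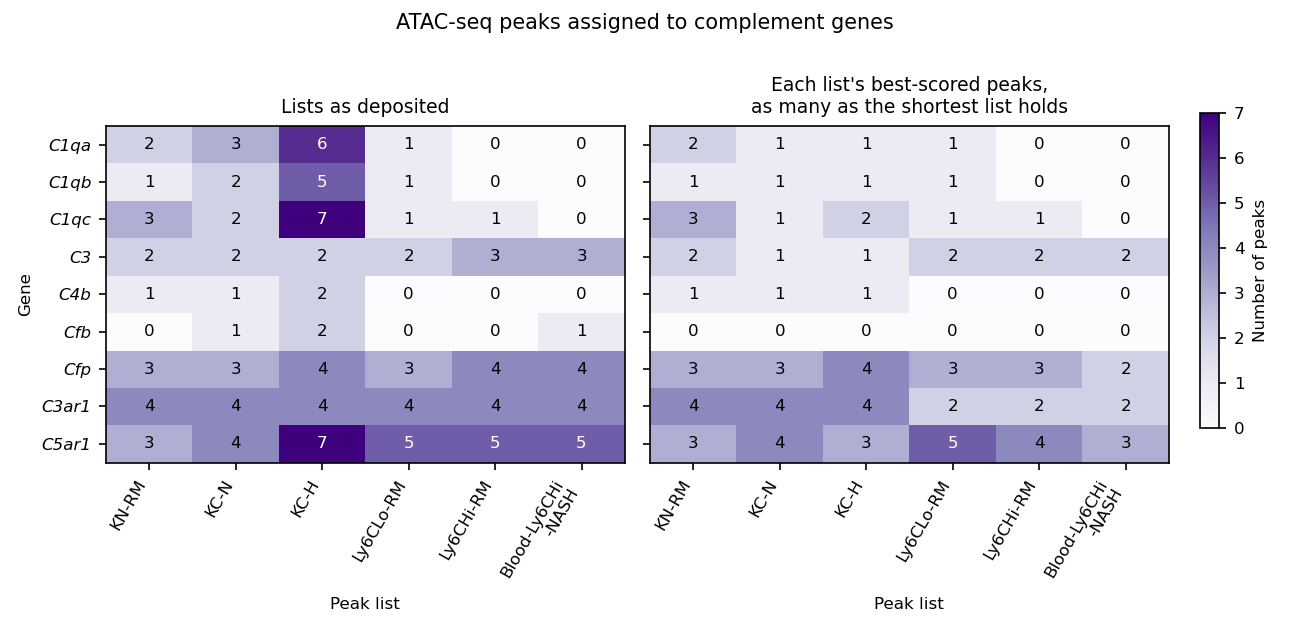
Number of ATAC-seq peaks assigned to each of the 9 complement genes (rows) in each of the 6 peak lists (columns), for the lists as deposited (left) and for the 34293 best-scored peaks of each list (right). C1qa, C1qb and C1qc have no peak in Blood-Ly6CHi-NASH in either panel, and their 18 peaks in KC-H become 4 in the right panel.

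The sequences before the annotated starts are shown for 5 genes, since the start peaks described below overlap them, some only in part. C1qb and C1qc are the starts that some populations lacked, and C3, Cfp and C3ar1 are starts that all 6 lists held. Each run is the 250 bases before the start from RefSeq (GRCm38.p6), 5′ to 3′ on the minus strand, from which all 5 genes are read. Capitals mark matches to the motifs described after the sequences.
C1qb, chr4:136886201-136886450: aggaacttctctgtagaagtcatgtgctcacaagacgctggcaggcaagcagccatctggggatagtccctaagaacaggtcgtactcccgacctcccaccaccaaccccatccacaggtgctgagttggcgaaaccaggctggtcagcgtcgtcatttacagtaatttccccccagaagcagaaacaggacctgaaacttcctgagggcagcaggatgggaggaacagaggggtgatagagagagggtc
C1qc, chr4:136892915-136893164: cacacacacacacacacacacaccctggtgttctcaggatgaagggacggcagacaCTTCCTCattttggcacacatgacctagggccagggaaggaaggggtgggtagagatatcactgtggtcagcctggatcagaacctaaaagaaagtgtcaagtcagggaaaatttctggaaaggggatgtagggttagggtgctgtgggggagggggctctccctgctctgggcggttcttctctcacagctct
C3, chr17:57228137-57228386: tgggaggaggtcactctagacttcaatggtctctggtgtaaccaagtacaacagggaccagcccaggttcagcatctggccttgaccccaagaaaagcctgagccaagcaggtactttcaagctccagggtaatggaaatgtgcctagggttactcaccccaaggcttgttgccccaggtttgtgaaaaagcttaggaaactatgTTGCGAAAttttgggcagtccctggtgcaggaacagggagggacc
Cfp, chrX:20931556-20931805: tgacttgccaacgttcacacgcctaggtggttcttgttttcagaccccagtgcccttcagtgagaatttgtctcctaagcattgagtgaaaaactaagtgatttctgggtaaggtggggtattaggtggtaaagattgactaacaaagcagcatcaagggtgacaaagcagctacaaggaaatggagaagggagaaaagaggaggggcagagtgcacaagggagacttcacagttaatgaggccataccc
C3ar1, chr6:122856158-122856407: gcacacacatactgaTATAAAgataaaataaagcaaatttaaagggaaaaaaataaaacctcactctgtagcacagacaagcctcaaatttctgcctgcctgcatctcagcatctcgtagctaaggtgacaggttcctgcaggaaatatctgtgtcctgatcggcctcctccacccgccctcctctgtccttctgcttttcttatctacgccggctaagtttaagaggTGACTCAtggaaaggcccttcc

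The RefSeq table held start sequences for 6 of the 9 genes, not for C1qa, C4b and Cfb. In windows from 250 bases before to 50 after the start, 10 motifs were searched on both strands. C1qc had a match to the PU.1 core GAGGAAG, 194 bases before its start on the opposite strand, and 13.6% of 21238 protein-coding start windows held one. C3 had the C/EBP motif TTGCNNAA 45 bases before its start (10.2% of windows) and the TATA box TATAAA within the first 50 bases after it (12.6%). C3ar1 had the AP-1 motif TGANTCA 22 bases before its start (6.99%) and TATAAA 235 bases before it. C5ar1 had the IRF motif GAAANNGAA 66 bases before its start on the opposite strand (8.13%). C1qb and Cfp had no match to any of the 10, and none of the 6 windows held the STAT motif TTCNNNGAA (7.69% of windows), the NF-kB motif GGGANTTCC (1.84%), the MAF motif TGCTGANTC (1.11%, which overlaps that of AP-1), the MEF2 motif CTATTTNTA (1.25%) or the E-box CACGTG (7.84%). These matches are descriptions of the letters and not of binding.

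The 3 C1q genes lie side by side on chromosome 4 within 18.7 kb of mm10. C1qb occupies chr4:136880126-136886200, C1qc chr4:136889801-136892936 and C1qa chr4:136895916-136898844. Each gene had 1 high-scoring region, which lay at its higher-coordinate end, and for C1qb and C1qc this is the annotated start. At C1qb the start peak had a score of 59 in KN-RM, 80 in KC-N, 132 in KC-H and 48 in Ly6CLo-RM, and no peak in Ly6CHi-RM or Blood-Ly6CHi-NASH. At C1qc it scored 57 in KN-RM, 72 in KC-N, 119 in KC-H, 59 in Ly6CLo-RM and 59 in Ly6CHi-RM, and was missing from Blood-Ly6CHi-NASH. At C1qa the region over the higher end scored 63 in KN-RM, 69 in KC-N, 108 in KC-H and 41 in Ly6CLo-RM, with none in Ly6CHi-RM or Blood-Ly6CHi-NASH. All 3 F4/80-high lists therefore held all 3 sites, Ly6CLo-RM held all 3, Ly6CHi-RM held that of C1qc alone and blood monocytes held none.

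The places of these peaks within their own lists differed too. In KN-RM they were among the best-scored 13.5% to 17.6% of peaks, in KC-N among 13.2% to 18.0%, and in KC-H among 9.38% to 14.5%. In Ly6CLo-RM they were lower, at 30.7% for C1qc, 40.3% for C1qb and 48.6% for C1qa, and the single site in Ly6CHi-RM stood at 38.2%. The nearest peak to the C1qc start in Blood-Ly6CHi-NASH was centred 51740 bp away. With lists of equal length the same lists held the same 3 sites.

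The position of the C1qb start peak also varied. Its centre lay 7 bp before the start in KN-RM, 36 bp in KC-N, 94 bp in KC-H and 156 bp in Ly6CLo-RM. The peaks of KN-RM and KC-N each overlapped that of Ly6CLo-RM by less than 50% of their length. Both therefore counted as absent from Ly6CLo-RM when pairs were compared under that stricter rule. The C1qc start peaks were closer together, with centres 128 bp before the start in KN-RM, 100 bp in KC-N, 102 bp in KC-H, 115 bp in Ly6CLo-RM and 113 bp in Ly6CHi-RM.

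Starts with such a pattern were few. Of 8186 protein-coding start windows with a peak in all 3 F4/80-high lists, 7970 (97.4%) had a peak in the other 3 lists as well, among them C3, Cfp, C3ar1 and C5ar1. In 98 (1.2%) there was none in Blood-Ly6CHi-NASH, and C1qb and C1qc were 2 of these. C1qb was 1 of 17 starts (0.208%) with a peak in Ly6CLo-RM and none in Ly6CHi-RM or blood, and C1qc 1 of 44 (0.538%) with a peak in both CD11b-high lists and none in blood.

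**Figure D2:**
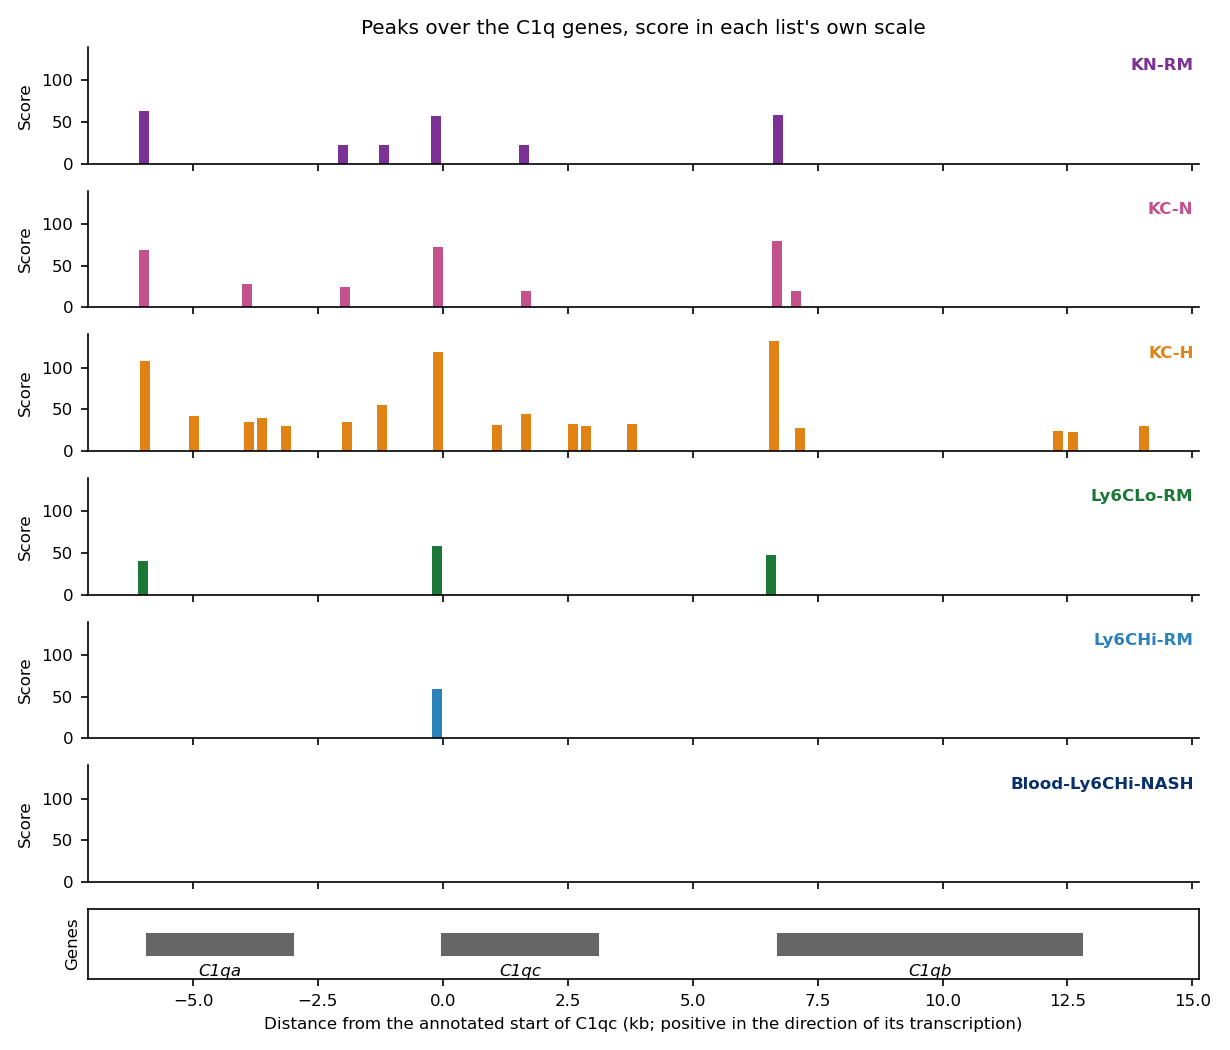
Peaks over the 3 C1q genes in each list, as bars at the peak centre with the authors' score on the vertical axis (each list's own scale), against the distance in kb from the annotated start of C1qc; grey boxes are the genes. The tall bars at the left edge of each gene box, its higher-coordinate end, appear in KN-RM, KC-N, KC-H and Ly6CLo-RM, 1 of them in Ly6CHi-RM and none in Blood-Ly6CHi-NASH, and the low bars between them are mostly those of KC-H.

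The remaining 15 regions of the C1q genes lay in, between and next to the genes. KN-RM held 3 of them, KC-N 4 and KC-H all 15, of which 10 were in KC-H alone, and the CD11b-high and blood lists held 0. Within KC-H they were weak, with scores from 23 to 55 and tag counts from 8.3 to 21.2. Of the 15, 1 was in the best-scored 50% of KC-H, and this region alone of them was left in KC-H at equal list length. It lay 1194 bp before the C1qc start, between C1qc and C1qa, with scores of 22 in KN-RM and 55 in KC-H, and no KC-N peak overlapped it, the nearest KC-N centre being 750 bp away. Sites found in all 3 F4/80-high lists and no other were 1650 bp inside C1qc, with scores of 23, 20 and 44 in KN-RM, KC-N and KC-H, and 1045 bp beyond the lower end of C1qa, with scores of 23, 24 and 35. KC-N and KC-H alone shared a site 394 bp inside C1qb (scores of 20 and 28) and one in C1qa (28 and 35). Summed, the Kupffer cell marker genes also had more peaks in each F4/80-high list than in any other. Singly, Clec4f and Cd5l did so, whereas Vsig4 had the most in blood, and Timd4 and Marco had 0 in KN-RM. Liver endothelial genes, summed, had 11 in KN-RM, 22 in KC-N and 34 in KC-H, against 11 to 15 in the CD11b-high and blood lists. Among them Stab2 had more peaks in each F4/80-high list than in any other, and Kdr had fewer. The part of these cells in the C1q pattern was not tested.

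C3 encodes the central protein on which the pathways meet, at chr17:57203967-57228136. It had 2 peaks in KN-RM, KC-N, KC-H and Ly6CLo-RM, and 3 in Ly6CHi-RM and Blood-Ly6CHi-NASH. The start region had scores of 38 in KN-RM, 39 in KC-N, 60 in KC-H, 46 in Ly6CLo-RM, 47 in Ly6CHi-RM and 50 in Blood-Ly6CHi-NASH, and it stood between the best-scored 37.5% and 49.2% of every list. An intragenic region 8749 bp from the start was also in all 6 lists. It scored 24 in KN-RM, 22 in KC-N and 38 in KC-H, against 75 in Ly6CLo-RM, 54 in Ly6CHi-RM and 55 in Blood-Ly6CHi-NASH. It was thus above the start peak in score in each CD11b-high and blood list and below it in each F4/80-high list. By tag count it was below the start in Ly6CHi-RM too (62.5 against 67.7). A weaker site 8096 bp from the start was in Ly6CHi-RM (score 24) and Blood-Ly6CHi-NASH (score 31) and in no other list.

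Cfp, on the X chromosome at chrX:20925454-20931555, encodes properdin, which stabilises the alternative pathway enzyme and is made by myeloid cells. Its start peak had scores of 34 in KN-RM, 53 in KC-N, 69 in KC-H, 66 in Ly6CLo-RM, 96 in Ly6CHi-RM and 100 in Blood-Ly6CHi-NASH. Within their lists these peaks stood at the best-scored 50.7%, 30.5%, 31.3%, 26.1%, 18.1% and 15.7%. By these percentages, which depend on list length, the blood list placed this start best and KN-RM, the shortest list, placed it lowest. The order at equal list length is not given here. A second region 610 bp before the start was again in all 6 lists, with scores of 23 in KN-RM, 38 in KC-N, 62 in KC-H, 52 in Ly6CLo-RM, 59 in Ly6CHi-RM and 84 in Blood-Ly6CHi-NASH. A region 1533 bp inside the gene was absent from KC-N alone and scored 21 in KN-RM, 49 in KC-H, 53 in Ly6CLo-RM, 60 in Ly6CHi-RM and 43 in Blood-Ly6CHi-NASH. Beyond the other end of the gene, 7884 bp from the start, a peak was in KC-N (41), KC-H (64), Ly6CHi-RM (26) and Blood-Ly6CHi-NASH (24), and was missing from KN-RM and Ly6CLo-RM.

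C3ar1 encodes the receptor for C3a and lies at chr6:122847140-122856157. It had 4 peaks in every list, the only 1 of the 9 genes with the same count throughout. Its start peak scored 57 in KN-RM, 89 in KC-N, 111 in KC-H, 49 in Ly6CLo-RM, 65 in Ly6CHi-RM and 52 in Blood-Ly6CHi-NASH. It was among the best-scored 9.92% to 17.4% of the F4/80-high lists and 33.5% to 43.4% of the others. A region 6869 bp before the start was also in all 6 lists, with scores of 33 in KN-RM, 51 in KC-N, 63 in KC-H, 72 in Ly6CLo-RM, 85 in Ly6CHi-RM and 94 in Blood-Ly6CHi-NASH. The leading peak of C3ar1 was thus the start in each F4/80-high list and the upstream site in each CD11b-high and blood list.

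Inside C3ar1, a region 3268 bp from the start was in all 6 lists, with scores of 19 in KN-RM, 38 in KC-N, 72 in KC-H, 32 in Ly6CLo-RM, 29 in Ly6CHi-RM and 45 in Blood-Ly6CHi-NASH. Between it and the start the lists held neighbouring, not overlapping, sites. KN-RM, KC-N, KC-H and Ly6CLo-RM had one 1370 bp from the start (25, 42, 60 and 21), and Ly6CHi-RM and Blood-Ly6CHi-NASH had one 1613 bp from it (28 and 23). The merged regions, chr6:122854657-122854921 and chr6:122854434-122854654, nearly touch. They still count as separate regions, and their peaks as absent from the other list, in the counts below. With each list cut to 34293 peaks, C3ar1 kept 4 peaks in KN-RM, KC-N and KC-H, and 2 in Ly6CLo-RM, Ly6CHi-RM and Blood-Ly6CHi-NASH.

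C5ar1 encodes the main receptor for C5a and lies at chr7:16246743-16259540. It had 3 peaks in KN-RM, 4 in KC-N, 7 in KC-H and 5 in each of Ly6CLo-RM, Ly6CHi-RM and Blood-Ly6CHi-NASH. Its leading site by score was inside the gene, 4908 bp from the start, with scores of 69 in KN-RM, 87 in KC-N, 123 in KC-H, 73 in Ly6CLo-RM, 110 in Ly6CHi-RM and 90 in Blood-Ly6CHi-NASH. Another, 1333 bp from the start, scored 47 in KN-RM, 72 in KC-N, 120 in KC-H, 70 in Ly6CLo-RM, 84 in Ly6CHi-RM and 89 in Blood-Ly6CHi-NASH. By tag count this second site was ahead in Ly6CLo-RM (115.1 against 99.2) and Blood-Ly6CHi-NASH (134.4 against 132.9), and behind in the other lists. Both sites were in the best-scored 10.1% to 28.2% of every list. The start itself was weaker in all 6 lists, with scores of 27 in KN-RM, 50 in KC-N, 49 in KC-H, 33 in Ly6CLo-RM, 43 in Ly6CHi-RM and 30 in Blood-Ly6CHi-NASH.

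The populations differed at the edges of C5ar1. A site 8427 bp inside the gene was missing from KN-RM and scored 41 in KC-N, 41 in KC-H, 56 in Ly6CLo-RM, 67 in Ly6CHi-RM and 47 in Blood-Ly6CHi-NASH. A site 3872 bp before the start was missing from both KN-RM and KC-N and scored 36 in KC-H, 35 in Ly6CLo-RM, 40 in Ly6CHi-RM and 28 in Blood-Ly6CHi-NASH. Weak sites 506 and 3733 bp inside the gene (scores of 23 and 33) were in KC-H alone.

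**Figure D3:**
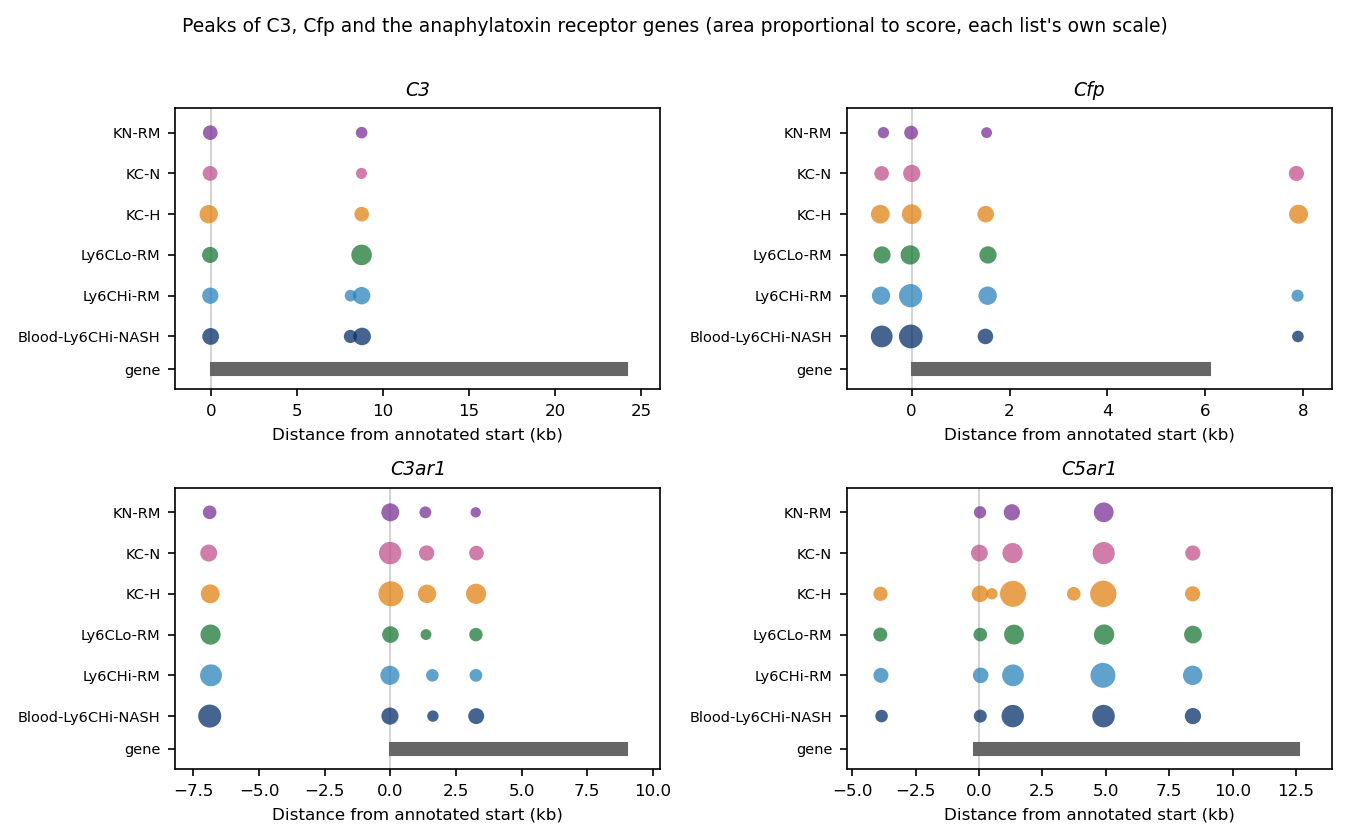
Peaks of C3, Cfp, C3ar1 and C5ar1 in each list (rows) against distance in kb from the annotated start, positive in the direction of transcription; the area of a point is proportional to the authors' score on the list's own scale, and the grey bar is the gene. Each gene has a point at its start in all 6 rows; in C3ar1 the start is the largest point of the F4/80-high rows and the site 6869 bp before it that of the others.

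C4b and Cfb, genes of the part of chromosome 17 that also holds the MHC, had few peaks. C4b encodes C4 of the classical pathway at chr17:34728139-34743902 and had no peak inside it or within 250 bp of either end in any list. A region 17734 bp beyond its higher end scored 36 in KN-RM, 48 in KC-N and 63 in KC-H, with no peak in the other 3 lists, where the nearest Ly6CLo-RM centre was 75016 bp from that of KN-RM. A weak site 2907 bp beyond that end (score 32) was in KC-H alone. C4b has a near-identical neighbour, C4a, a transcribed pseudogene in the table used, and how reads that match both were placed is not given in the sources used here, so the absence of peaks in C4b is uncertain.

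Cfb encodes factor B of the alternative pathway at chr17:34856374-34862514. A site 2494 bp from its lower end scored 29 in KC-N and 31 in KC-H. Another, 219 bp inside its higher end and next to C2, scored 43 in KC-H and 18 in Blood-Ly6CHi-NASH, in the lowest-ranked part of the blood list (best-scored 98.5%). At equal list length no list held a Cfb peak. The hepatocyte marker genes had 13 peaks in Blood-Ly6CHi-NASH and 1 to 3 in the liver lists, and their part in the peaks of C4b and Cfb was not tested.

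**Figure D4:**
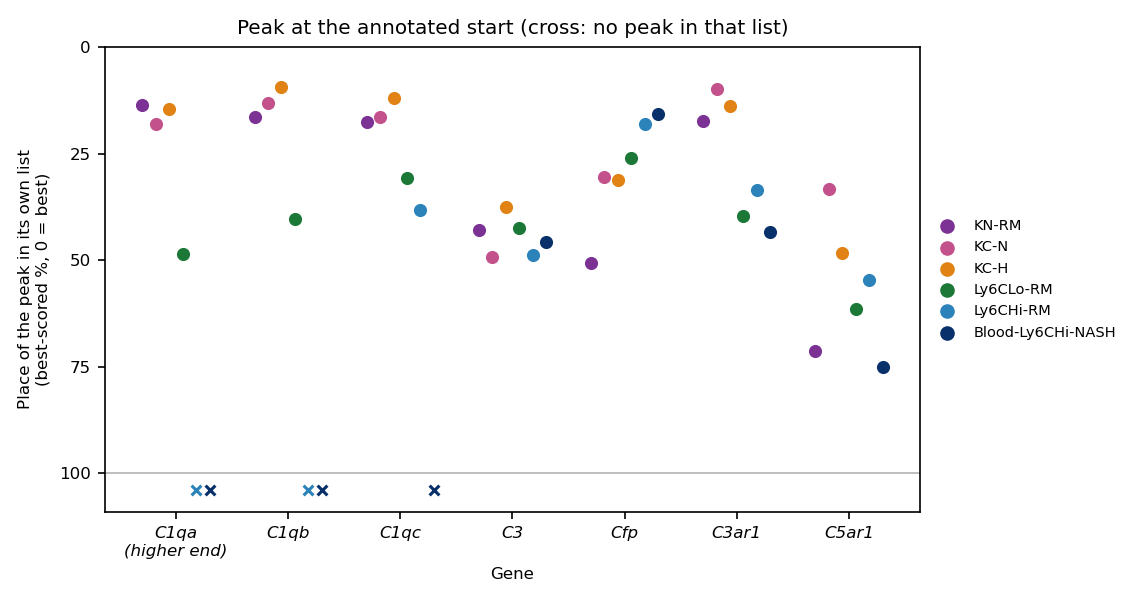
Place of the start peak of each gene within its own list, as the best-scored percentage (0 is the best, axis turned so that better peaks are higher); a cross means no peak in that list, and for C1qa the higher-coordinate end is shown. C4b and Cfb, which like C1qa have no annotated start in the table, are not drawn. The 3 F4/80-high lists hold the C1qb and C1qc starts and the C1qa higher end within the best 18.0%. The blood list holds none of these, and Cfp is placed best in Blood-Ly6CHi-NASH (15.7%). The percentages depend on list length, which differs between the lists.

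The lists that shared a region were compared with those over all regions. Of the 41 regions 10 (24.4%) were in all 6 lists, close to the 25.4% of all 100354 regions, and these were 2 of C3, 2 of Cfp, 3 of C3ar1 and 3 of C5ar1. KC-H alone held 13 (31.7%), against 9.84% of all regions, and 10 of the 13 were C1q regions. At equal list length 0 regions of the 9 genes were in KC-H alone. The share of all regions in KC-H alone at that length is not given here, so this 0 has no value to stand beside. The trio of F4/80-high lists, with none of the others, held 3 (7.32%, against 1.89%), and the F4/80-high lists with Ly6CLo-RM held 3 (7.32%, against 0.457%), of which 2 were C1q regions and 1 was in C3ar1. In all, 20 of the 41 regions (48.8%) were in no CD11b-high or blood list, against 18.3% of all regions, and 13 of the 20 were those in KC-H alone. With lists of equal length it was 7 of 22 (31.8%), against 21.4% of all regions.

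Pairs of lists were then compared by the peaks of each that had no overlap of 1 bp or more in its partner, for all peaks and for those in the best-scored 50% of the list. These pairs share lists and are not independent. The shares over a whole list have 95% Wilson intervals of at most 0.464 percentage points either side, which cover counting error only.

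For the diet, KC-N was set against KC-H. KC-H lacked 0 of the 22 KC-N peaks of the 9 genes, where it lacked 13.5% of the whole KC-N list. KC-N lacked 17 of the 39 KC-H peaks (43.6%), where it lacked 31.2% of the whole KC-H list. The 17 were 11 of the C1q genes, 3 of C5ar1 and 1 each of C4b, Cfb and Cfp. Among the best-scored 50%, KC-H lacked 0 of 14 (3.73% of the list) and KC-N lacked 2 of 17 (5.69% of the list). These 2 were the site between C1qc and C1qa and the intragenic site of Cfp. At equal list length both were still in KC-H and absent from KC-N, but no longer in the best-scored 50%, where the count was 0 in either direction. All 6 annotated starts had a peak in both KC-H and KC-N, and 15 of the 17 missing peaks were in the lower-scored part of KC-H. C1qa and Cfb have no annotated start in the table. The higher end of C1qa had a peak in both lists. Within 250 bp of the higher end of Cfb (score 43) and the lower end of C1qa (score 30), KC-H had a peak and KC-N had none.

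For the Tim4 label, KN-RM was set against KC-N. KN-RM lacked 5 of the 22 KC-N peaks (36.0% of the list lacked a KN-RM peak), 1 each of C1qa, C1qb, Cfb, Cfp and C5ar1. KC-N lacked 2 of the 19 KN-RM peaks (5.74% of the list), 1 each of C1qc and Cfp. Among the best-scored 50% KN-RM lacked 2 of 14 (6.32%), at Cfp and C5ar1, and KC-N lacked 0 of 8 (1.03%). Both were still in KC-N, and absent from KN-RM, the shortest list, at equal list length, but no longer in the best-scored 50%.

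For cells of the liver against those of the blood, Ly6CHi-RM was set against Blood-Ly6CHi-NASH. The C1qc start was the 1 of 17 Ly6CHi-RM peaks absent from blood (11.1% of the list), and also the 1 of 11 in the best-scored 50% (1.67%). At equal list length it was still in Ly6CHi-RM and not in blood, but no longer in the best-scored 50%, so that the second count was 0. In the other direction 1 of 17 blood peaks was absent from Ly6CHi-RM (21.4%), the weak Cfb site, and 0 of 9 in the best-scored 50% (2.18%). At these genes the lists thus differed by C1qc and a weak Cfb peak. Liver cells went through perfusion and digestion, and the tissue cannot be told apart from the way its cells were isolated.

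For the Ly6C label, Ly6CLo-RM was set against Ly6CHi-RM. Ly6CLo-RM had 3 of 17 peaks absent from Ly6CHi-RM (14.0% of the list), the sites at C1qa, C1qb and inside C3ar1, and 2 of 13 in the best-scored 50% (2.96%), those at C1qa and C1qb, and this second count was 0 at equal list length, where both sites were still in Ly6CLo-RM alone of this pair. Ly6CHi-RM had 3 of 17 absent from Ly6CLo-RM (23.6%), 1 each of C3, Cfp and C3ar1, and 0 of 11 in the best-scored 50% (3.89%).

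F4/80-high cells of the NASH diet were set against Ly6CLo-RM. KN-RM had 4 of 19 peaks absent from Ly6CLo-RM (15.0% of the list), at C1qa, C1qc and C4b, and 1 of 8 in the best-scored 50% (5.39%), the distal site of C4b. Ly6CLo-RM had 2 of 17 absent from KN-RM (46.6%), both of C5ar1, and 1 of 13 in the best-scored 50% (18.9%). KC-N had 7 of 22 absent from Ly6CLo-RM (27.0%), 4 of them C1q peaks, and 2 of 14 in the best-scored 50% (10.6%), at C4b and Cfp. Ly6CLo-RM had 2 of 17 absent from KC-N (32.4%), at Cfp and C5ar1, and 1 of 13 in the best-scored 50% (10.6%). At equal list length the counts in the best-scored 50% were 1 for KN-RM against Ly6CLo-RM and 1, at another site, for Ly6CLo-RM against KC-N, and 0 for the other directions. The sites named here for the best-scored 50% were still in their lists and absent from the partner at that length. The C4b site was in every F4/80-high list and in neither CD11b-high one.

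**Figure D5:**
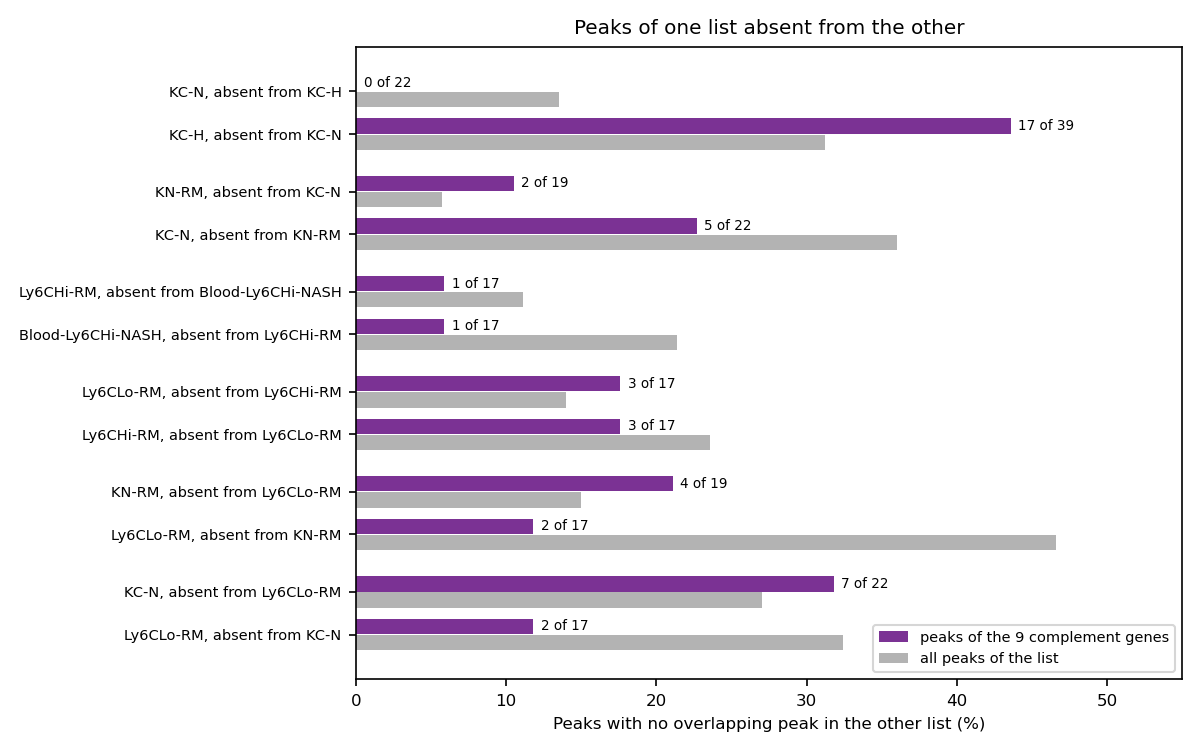
Percentage of a list's peaks without an overlapping peak in its partner, for the 9 complement genes (purple, with counts) and for the whole list (grey), in both directions of 6 pairs of lists. KC-H against KC-N has the most peaks of the 9 genes absent from the other list, 17 of 39, and KC-N has none absent from KC-H. The lists are as deposited, and KC-H is longer than KC-N.

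Other complement genes were counted as 1 list of 39, of which 38 were in the table and 30 had a peak in some list. They had 34 peaks in KN-RM, 59 in KC-N, 71 in KC-H, 53 in Ly6CLo-RM, 70 in Ly6CHi-RM and 74 in Blood-Ly6CHi-NASH, and 12 had a peak in all 6 lists. Between the diets, 5 genes had more peaks in KC-N than in KC-H, 10 had fewer and 9 had the same number. KC-H is the longer list, with 63501 peaks against 50550. No like count over all genes or at equal list length stands beside these numbers, so they are not read as a trait of complement genes. Fcna, which encodes ficolin A, a lectin of the complement system, had 1, 1 and 4 peaks in KN-RM, KC-N and KC-H and 0 in the other 3 lists. C6, a gene of the membrane attack complex, had 1, 3 and 7 peaks in KN-RM, KC-N and KC-H and 1 in each other list. Vsig4, a complement receptor gene of Kupffer cells, had 1, 2, 5, 1, 4 and 6 peaks from KN-RM to Blood-Ly6CHi-NASH, with the most in blood. Itgam, which encodes CD11b of complement receptor 3, had 5, 5 and 7 peaks in KN-RM, KC-N and KC-H and 9, 10 and 10 in Ly6CLo-RM, Ly6CHi-RM and Blood-Ly6CHi-NASH. Cd93 had 10, 12, 14, 10, 18 and 17 peaks and the regulator gene Cd46 had 1, 6, 3, 2, 2 and 2, in the same order.

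Genes with like patterns were sought among 5204 other genes with at least 20 peaks, by the Euclidean distance between their shares of peaks over the 6 lists. The C1q genes, summed (a choice made after the values were seen), were nearest to Clec4f, a Kupffer cell lectin gene with 5 peaks in KN-RM, 7 in KC-N, 18 in KC-H, 0 in Ly6CLo-RM, 1 in Ly6CHi-RM and 1 in Blood-Ly6CHi-NASH (distance 0.103). Cirbp (0.114) and Fam167a (0.119) came next. Singly, C1qa, C1qb and C1qc had 12, 9 and 14 peaks over the lists, below the limit of 20. The distances use the lists as deposited. Most of the 18 C1q peaks of KC-H were lost at equal list length, for which no distances are given. C5ar1 was nearest to Sh2b3 (0.0217), Ly6e (0.0266) and Ccnd1 (0.0267). The shares of Cfp were matched exactly by 7 genes, of which Dyrk1b, Edem3 and Fignl1 come first by name, and those of C3ar1 by 16, of which Ahrr, Bag6 and Dcaf11 come first. These likenesses rest on 6 lists and are descriptions.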

How the data were processed

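The 12 ATAC-seq libraries fall into 6 groups of 2 by their titles. Each group has 1 peak list, named for the irreproducible discovery rate per the labels, and belonging to both libraries. Bowtie2, HOMER, DESeq2, mm10 and GRCm38 stand in the submitters' processing notes with no role or version. The sources used here do not give the depth of a library, the read filters or whether reads were shifted for the transposase. Each deposited list holds positions, a signal (the authors' tag count per peak, on a scale of the list's own) and a score, a whole number from the authors' pipeline, with no header. Both columns are the authors' values. All but 10 peaks are 200 bp wide.

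Gene positions are RefSeq's for GRCm38.p6 (21887 protein-coding genes on chromosomes 1 to 19, X and Y), in a table with no strand or exons; starts and strands came from the RefSeq start sequences, with 6 of the 9 genes. A centre inside several genes went to the one with the nearer end. Coordinates are those of the lists. Ties in score were ordered by tag count. No model was fitted and no p-value computed, since no list has a replicate. Named are the 9 genes, the 6 other complement genes with the largest range of counts, and like genes as defined in the text. The 9 genes, the gene lists and the settings were chosen with earlier results of these data known. Functions were tested on simulated peaks. Tools were pandas 2.3.3, numpy 2.4.6 and scipy 1.17.1 under Python 3.11.15, with figures by matplotlib 3.10.9.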

Additional observations from a re-analysis of the deposited data

How the results depend on the processing

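No paired analysis was possible because each list joins both libraries of its group; for the same reason no replicate could be left out. Precision is limited by the 131 peaks involved and by lists of different length, and the depth of the libraries is not given. Of the alternative values of the main results 140 were within 1.5 times and 69 were not. A 20 kb window, centres within 200 bp, start windows of 500 and 1000 bp and ranking by tag count moved none. The causes of the other changes were not tested beyond what the settings take away.

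With equal-length lists the 9 genes had 17 peaks in KC-H and 9 in Blood-Ly6CHi-NASH, in 22 regions, with 0 in KC-H alone and 7 in no CD11b-high or blood list; every count of well-scored absent peaks became 0, except 1 of KN-RM absent from Ly6CLo-RM and 1 of Ly6CLo-RM absent from KC-N. All 12 peaks counted in the lists as deposited were still in the shortened list and absent from its partner, and 11 had left the best-scored 50%. With the better-scored 50% of every list there were 8 peaks in KN-RM, 14 in KC-N, 17 in KC-H, 11 in Ly6CHi-RM and 9 in Blood-Ly6CHi-NASH, and 19 regions (4 in all lists, 2 in KC-H alone, 1 in the F4/80-high lists alone, 6 in no CD11b-high or blood list). Absent peaks were then 1 of KC-N from KC-H, 4 of KC-H from KC-N, 6 of KC-N from KN-RM, 2 of Ly6CHi-RM from blood, 6 of Ly6CLo-RM from KN-RM, 4 of KC-N from Ly6CLo-RM and 3 of Ly6CLo-RM from KC-N. For equal-length lists and for the better-scored 50%, no share over the whole list stands beside the counts of absent peaks. They are not read as a trait of these genes. A tag count floor of 18.4, added after the data were seen and set across lists that each have a scale of their own, left 8 peaks in KN-RM and 17 in KC-H.

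With centres inside genes only there were 9, 12, 25, 9, 9 and 10 peaks from KN-RM to Blood-Ly6CHi-NASH and 27 regions (5 in all lists, 1 in the F4/80-high lists alone). Absent peaks were 1 of KC-H from KC-N and 1 of KC-N from KN-RM. They were 0 for Ly6CHi-RM from blood, Ly6CLo-RM from Ly6CHi-RM, KN-RM from Ly6CLo-RM and KC-N from Ly6CLo-RM. Centres outside gene ends, such as those of the peaks at the higher ends of the C1q genes, no longer count under this setting. Assignment by nearest start or end gave 0 for both directions with KN-RM as the other list (KC-N and Ly6CLo-RM) and 1 for KC-N from Ly6CLo-RM. The best-scored 25% gave 0 in all 12 directions, and all peaks gave the counts of the report (17, 2, 5, 1, 3, 4, 2, 7 and 2 where they moved). Requiring no centre within 1000 bp left 1 of KC-H absent from KC-N, at Cfp. An overlap of 50% of the shorter peak gave 2 of KN-RM and 3 of KC-N absent from Ly6CLo-RM. It gave 2 of Ly6CLo-RM absent from KN-RM and 2 absent from KC-N. Each of these counts had the C1qb start peak added. Apart from those for all peaks, the absent-peak counts of this paragraph have no whole-list share beside them. They too are not read as a trait of these genes.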
